A study of Homo sapiens with 6 samples.

Results

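The Kruppel-like factors (KLFs) are zinc-finger transcription factors that bind GC-rich and CACCC-type DNA. Some of them switch genes on, others recruit corepressors such as SIN3A or CtBP, and many change quickly with growth factors, hormones and stress. In epithelia they are known for opposing roles in growth and differentiation, with KLF4 as a classical brake on the cell cycle and KLF5 as a growth-promoting factor. The 10 genes followed here were KLF2, KLF3, KLF4, KLF5, KLF6, KLF9, KLF10, KLF11, KLF13 and KLF15. They were selected by gene symbol from a table that listed 33451 genes, and all 10 passed the filter on low counts that left 18183 genes for testing.

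The libraries came from MDA-MB-453, a human breast cancer cell line with luminal and apocrine traits, cultured for 5 days either in 100 nM 25(OH)D, the main circulating form of vitamin D, or in its solvent. Each group held 3 libraries of messenger RNA, sequenced as read pairs from a stranded preparation, and no other allele or agent separated the groups. The solvent group is called control here, and as a single line the cells do not stand for breast epithelium at large. Total counts ran from 33268860 to 40928176 per library, at which 3 counts correspond to 0.0720 to 0.0921 CPM, the count scaled to a common library total. CPM was scaled by TMM factors, and differences are log2 ratios of 25(OH)D over control from edgeR's quasi-likelihood test, with p-values adjusted by Benjamini-Hochberg over all genes tested and a threshold of 0.05.

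All 10 luminal and apocrine markers were expressed, with a summed level of 12309 to 12655 CPM in control and 9940 to 10136 CPM in 25(OH)D libraries. Most of that sum was XBP1, at 7947 ± 133 CPM in control and 5412 ± 97.3 CPM in 25(OH)D. The lower sum in 25(OH)D thus follows XBP1 and does not stand for the markers as a set. Of the 10 markers 5 were higher and 4, with XBP1 among them, lower in 25(OH)D. Of the fibroblast markers, COL1A1 was the only one above 16 counts in any library, with 1323 to 1604 counts in control and 1119 to 1270 in 25(OH)D, and COL3A1 was not among the listed genes. Of the blood markers, PTPRC stayed at or below 6 counts, CD3E at or below 2 and CD14 at or below 8, whereas CD68, a lysosomal protein of macrophages that epithelial lines can also express, ran from 167 to 211 counts in control and from 498 to 628 in 25(OH)D. The summed level of the 4 blood markers was therefore 4.08 to 5.68 CPM in control and 13.3 to 19.3 CPM in 25(OH)D. The endothelial markers PECAM1 and VWF did not exceed 12 counts in any library. The basal markers KRT5 and KRT14 did not exceed 24 counts, and TP63 fell from 12 to 26 counts in control to 2 or 3 in 25(OH)D (adjusted p = 0.00193). The part of any of these shifts in the KLF results was not tested, and in bulk RNA fewer cells of a kind and less RNA per cell cannot be told apart.

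Most of the family's upstream sequences were rich in G and C. RefSeq windows on GRCh38.p14 were used for 8 of the 10 genes. None of KLF3 or KLF10 was included, so the motif counts do not cover those members. The 8 genes gave 10 windows of 250 bases that end just before the annotated start. Of these, 8 were 69.2% to 80.4% G or C and held 2 to 6 GC boxes each, against a median of 58% G or C over the windows of all genes. The others were that of KLF9 and 1 of the 2 windows of KLF5, at 32.4% and 40.8%. Shown are KLF2 and KLF9, which were both lower in 25(OH)D, and KLF13, which was higher. KLF9 is shown as the exception among them. Capitals mark GGGCGG, the GC box that KLF and SP proteins bind, and CACCC, each on either strand.
KLF2, chr19:16324576-16324825, plus strand: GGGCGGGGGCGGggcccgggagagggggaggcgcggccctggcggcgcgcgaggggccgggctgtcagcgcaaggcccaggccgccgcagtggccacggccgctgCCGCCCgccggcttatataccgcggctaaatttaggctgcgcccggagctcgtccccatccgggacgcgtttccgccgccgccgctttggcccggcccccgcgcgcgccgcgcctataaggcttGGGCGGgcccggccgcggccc
KLF9, chr9:70414658-70414907, minus strand: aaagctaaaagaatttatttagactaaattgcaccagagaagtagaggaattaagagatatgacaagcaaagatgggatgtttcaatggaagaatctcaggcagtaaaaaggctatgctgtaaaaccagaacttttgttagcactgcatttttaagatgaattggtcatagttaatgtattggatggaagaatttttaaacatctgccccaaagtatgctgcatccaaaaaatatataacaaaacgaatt
KLF13, chr15:31326585-31326834, plus strand: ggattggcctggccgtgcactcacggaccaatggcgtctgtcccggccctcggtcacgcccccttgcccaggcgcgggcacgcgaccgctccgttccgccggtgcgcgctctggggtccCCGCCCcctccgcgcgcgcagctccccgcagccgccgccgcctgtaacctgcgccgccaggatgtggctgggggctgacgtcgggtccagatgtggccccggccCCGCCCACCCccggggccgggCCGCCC
The KLF2 window was 80% G or C and held 4 GC boxes. The KLF9 window held neither motif. The KLF13 window was 78.8% G or C with 3 GC boxes and 1 CACCC. Of all 10 windows, 8 held GGGCGG, against 42.6% of 35116 windows of equal length from all genes. CACCC was in 4 of 10 against 54.7% of all windows, and CCAAT was in 5 of 10 against 32.0%. Direct repeats spaced by 3 bases, the form that the vitamin D receptor is known to bind, were searched as 2 copies of AGGTCA or of its variants (GGGTCA and AGTTCA and GGTTCA, in any mix). They were in none of the 10 windows and in 0.0655% of all windows, so that their letters were rare in windows of this size. The windows of members that were lower (KLF2, KLF4, KLF6, KLF9) and higher (KLF11, KLF13) both included GC-rich ones, and the motifs are described here without any bearing on what bound there.

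In 25(OH)D-treated cells 4 KLF genes were lower and 2 were higher. KLF4, KLF6, KLF2 and KLF9 fell, KLF13 and KLF11 rose, and KLF3, KLF5, KLF10 and KLF15 did not pass the test. Among all genes tested, 16.5% were lower and 17.3% were higher, so 6 of 10 members stand beside a background of 33.8%. The members were chosen with earlier results of these data known, so nothing is read from that share. Of 4 other KLF genes tested, 1 passed. The median log2 difference of the 10 was -0.24, against -0.011 over all genes. Groups did not overlap for the same 6 genes, 4 of them lower and 2 higher. Over all genes tested, groups did not overlap in 45.7%, lower in 22.9% and higher in 22.8%.

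**Figure D1:**
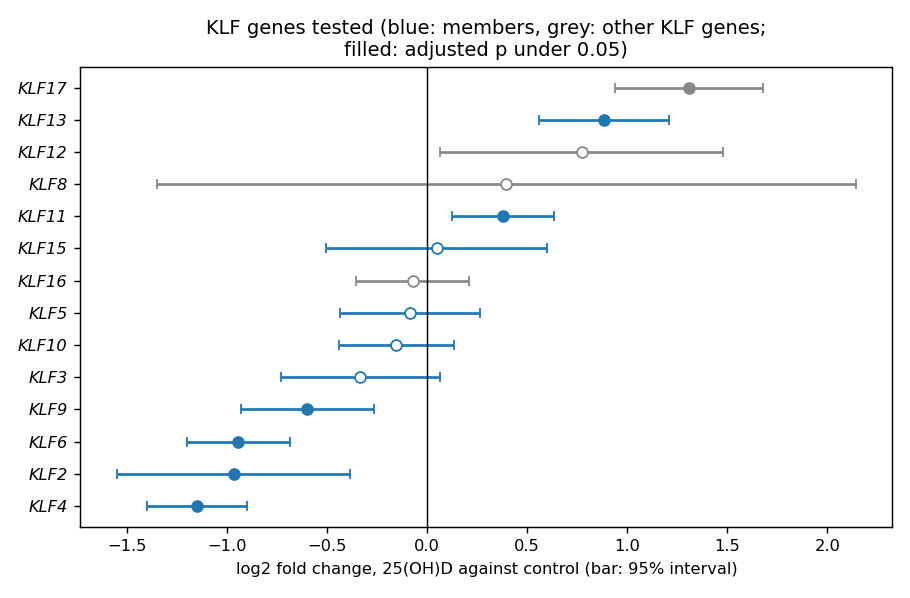
Log2 difference (25(OH)D over control) of the 10 members in blue and of the other tested KLF genes in grey, with 95% intervals as bars; filled points passed an adjusted p of 0.05. KLF4, KLF6, KLF2 and KLF9 lie below 0 and KLF13, KLF11 and KLF17 above it.

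KLF4, a differentiation factor of epithelia that restrains the cell cycle, showed the firmest fall. Its counts were 363, 341 and 302 in control and 137, 157 and 120 in 25(OH)D, or 8.72, 9.02 and 8.20 CPM against 3.90, 4.08 and 3.68 CPM. No library of one group reached the other, and the libraries within each group differed by little, with coefficients of variation of 4.76% and 5.16%. In mean ± SD over 3 libraries, control held 8.65 ± 0.411 CPM and 25(OH)D held 3.89 ± 0.201 CPM, a fall of 55.0% in the fitted value. The log2 difference was -1.15, with an SE of 0.116 and a 95% interval of -1.40 to -0.90 (adjusted p = 2.65e-06, edgeR). KLF4 was the only member beyond a log2 difference of 1, a limit that 6.65% of all genes tested passed, 2.63% downward and 4.02% upward. Its gene lies at chr9:107484852-107490482 on the minus strand (GRCh38).

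KLF6, a widely expressed factor known to activate the cell-cycle inhibitor CDKN1A, was lower in every 25(OH)D library. Counts were 903, 736 and 673 in control and 285, 451 and 360 in 25(OH)D. These correspond to 21.7, 19.5 and 18.3 CPM against 8.11, 11.7 and 11.05 CPM. The groups were apart by more than their own spread. The log2 difference was -0.94 (SE 0.120, 95% interval -1.20 to -0.69, adjusted p = 2.60e-05), a fall of 48.0% in the fitted value. KLF6 lies at chr10:3775996-3785281 on the minus strand.

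KLF2, a factor best known for quiescence of endothelium and T cells, fell by a similar amount but far less evenly. Counts were 244, 154 and 133 in control and 43, 107 and 96 in 25(OH)D, or 5.86, 4.07 and 3.61 CPM against 1.22, 2.78 and 2.95 CPM. The groups did not overlap, but control replicate 1 and 25(OH)D replicate 1 lay away from the others of their group in opposite directions. The log2 difference was -0.97 (SE 0.271, 95% interval -1.55 to -0.38, adjusted p = 0.0130). Without control replicate 1 it was -0.72 with an adjusted p of 0.0657, so the call was lost with that library. Without 25(OH)D replicate 1 alone it was -0.66 and the call was kept (adjusted p = 0.0399), and without replicate 1 of both groups it was -0.42 with an adjusted p of 0.149. Its spread between replicates, a biological coefficient of variation of 0.216, was above that of 99.0% of 2119 genes of like level. KLF2 lies at chr19:16324817-16327874 on the plus strand.

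A copy of KLF2 named KLF2P1 was counted at 29, 27 and 25 in control and 8, 7 and 11 in 25(OH)D (log2 difference -1.49, SE 0.411, adjusted p = 0.0119). The groups did not overlap there either, but the call was lost without 25(OH)D replicate 2 (-1.29, adjusted p = 0.0629). Reads of such copies can be split with the parent gene, although no 100-base stretch of the KLF2 transcripts in GENCODE 29 was found in the transcripts of another gene.

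KLF9, a hormone-responsive factor that recruits SIN3A, was lower by a smaller margin. Counts were 204, 164 and 188 in control and 94, 136 and 106 in 25(OH)D, which gave 4.90, 4.34 and 5.11 CPM against 2.67, 3.54 and 3.25 CPM. All 3 treated libraries lay under all 3 control libraries. The log2 difference was -0.60 (SE 0.155, 95% interval -0.93 to -0.26, adjusted p = 0.00803). It stayed past the threshold when any single library was left out, with values from -0.68 to -0.49, but not without replicate 1 of both groups (-0.47, adjusted p = 0.0855). KLF9 lies at chr9:70384597-70414624 on the minus strand.

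**Figure D2:**
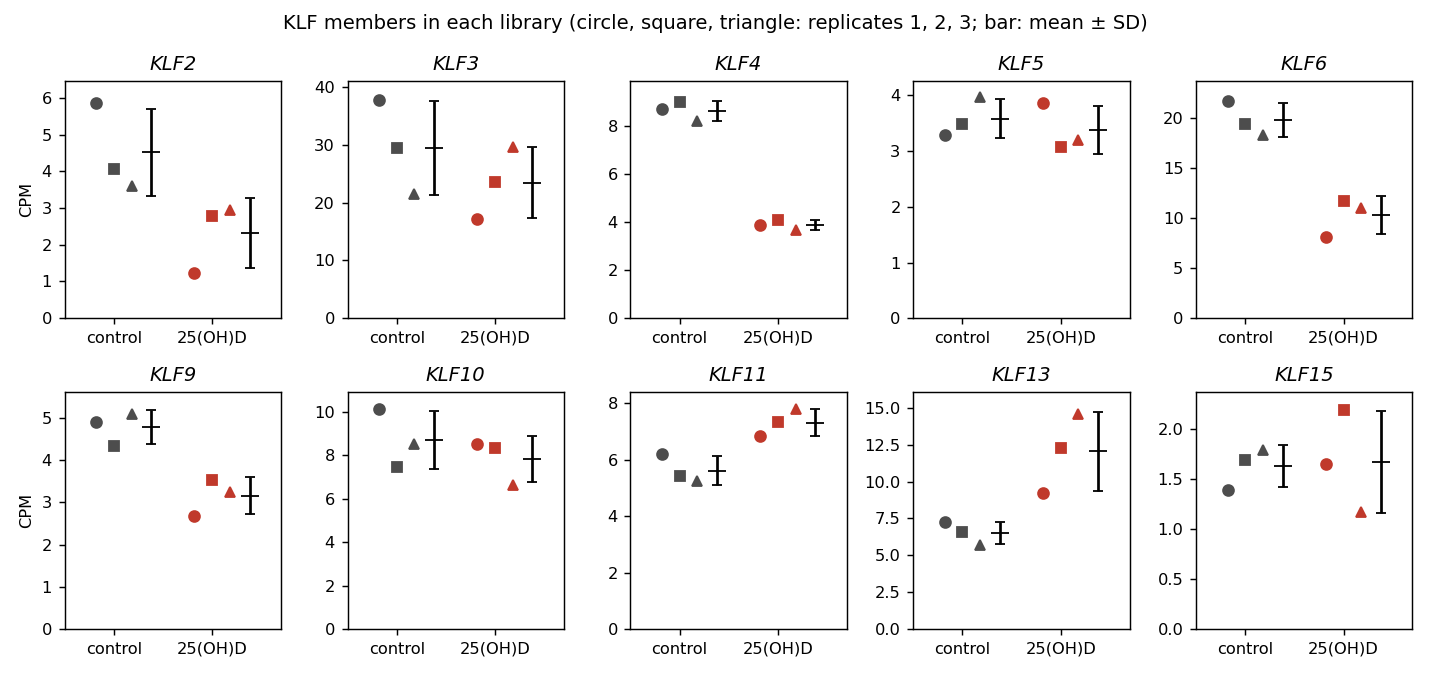
CPM of each member in each library, with circle, square and triangle for replicates 1, 2 and 3 and bars for mean ± SD of the 3 libraries. The groups are apart for KLF2, KLF4, KLF6, KLF9, KLF11 and KLF13 and overlap for KLF3, KLF5, KLF10 and KLF15.

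KLF13, a SIN3A-recruiting factor related to KLF9 and known as an activator of the chemokine gene CCL5 in T cells, moved in the opposite direction. Counts were 302, 248 and 210 in control and 325, 472 and 476 in 25(OH)D, or 7.25, 6.56 and 5.70 CPM against 9.25, 12.3 and 14.6 CPM. The lowest treated library was still above the highest control library. The mean rose 1.85-fold in the fit, a log2 difference of 0.88 (SE 0.150, 95% interval 0.56 to 1.21, adjusted p = 3.53e-04). The treated libraries were spread more widely than the control ones, with SDs of 2.69 and 0.776 CPM. KLF13 lies at chr15:31326855-31435665 on the plus strand.

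KLF11, one of the TGF-beta-inducible KLF genes and a SIN3A-binding repressor, rose slightly. Counts were 258, 205 and 193 in control and 240, 282 and 254 in 25(OH)D, and in CPM 6.20, 5.42 and 5.24 against 6.83, 7.33 and 7.79. The groups were apart by a narrow gap, and before scaling to depth control replicate 1 had more counts than 2 of the 3 treated libraries. The log2 difference was 0.38 (SE 0.119, 95% interval 0.12 to 0.64, adjusted p = 0.0243). Leaving out any of 4 single libraries put the adjusted p past 0.05, at 0.0751 without control replicate 2, 0.0730 without control replicate 3, 0.0575 without 25(OH)D replicate 2 and 0.0688 without 25(OH)D replicate 3. The gene, at chr2:10042849-10054836 on the plus strand, shares 416 exon bases with a gene on the other strand, RP11-254F7.3, which averaged 3.67 counts per library.

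KLF3, a repressor that works through CtBP, was the member with the highest level and the least settled result. Counts were 1569, 1113 and 788 in control and 606, 907 and 963 in 25(OH)D, or 37.7, 29.4 and 21.4 CPM against 17.2, 23.6 and 29.6 CPM. Groups overlapped, since control replicate 3 was below 2 of the 3 treated libraries. The log2 difference was -0.33 (SE 0.185, 95% interval -0.73 to 0.06, adjusted p = 0.189). It passed the threshold without control replicate 3 (-0.51, adjusted p = 0.0235) and without 25(OH)D replicate 3 (-0.52, adjusted p = 0.0379), and it changed sign without replicate 1 of both groups (0.062, adjusted p = 0.792). Its spread was above that of 99.4% of 2774 genes of like level.

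The antisense gene KLF3-AS1 on the opposite strand, which shares 266 of the 6297 exon bases of KLF3, varied widely. It was at 691, 296 and 52 counts in control and 108, 296 and 478 in 25(OH)D, or 16.6, 7.83 and 1.41 CPM against 3.07, 7.70 and 14.7 CPM. Within each group its libraries stood in the same order as those of KLF3. Between groups its log2 difference was -0.043 (adjusted p = 0.964), a direction that turned under several alternatives and when control replicate 1 or 25(OH)D replicate 1 or 2 was left out (0.87, 0.36 and 0.025). The preparation kept the strand, but the strand setting of the counting is not given in the sources used here, so reads over the shared bases may be of either gene. What KLF3-AS1 contributes to the KLF3 values was not tested.

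**Figure D3:**
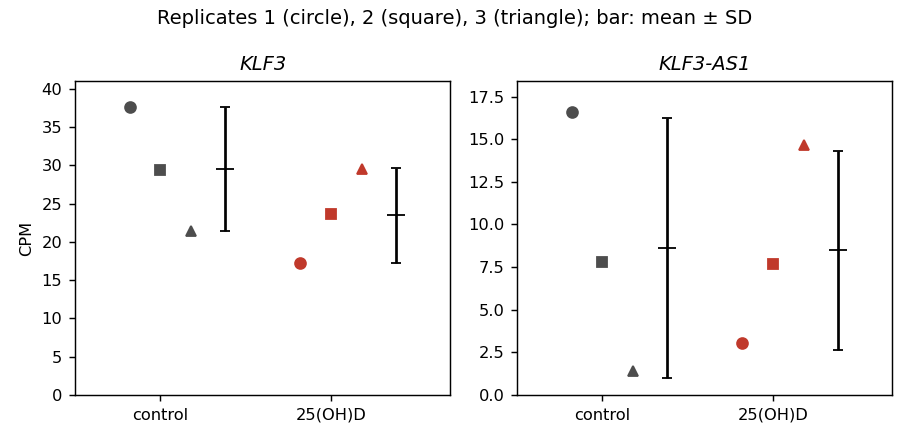
CPM of KLF3 and of its antisense gene KLF3-AS1 in the 6 libraries, with circle, square and triangle for replicates 1, 2 and 3 and bars for mean ± SD. In both genes control replicate 1 and 25(OH)D replicate 3 are the highest libraries of their groups, and control replicate 3 and 25(OH)D replicate 1 the lowest.

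The other 3 members did not pass the test. KLF10, the other TGF-beta-inducible member, was at 422, 282 and 314 counts in control and 300, 320 and 216 in 25(OH)D, with a log2 difference of -0.15 and a 95% interval of -0.44 to 0.13 (adjusted p = 0.421). KLF5, the growth-promoting epithelial factor, was at 137, 132 and 146 counts against 136, 118 and 104 (log2 difference -0.084, 95% interval -0.43 to 0.26, adjusted p = 0.734). KLF15, a metabolic regulator of amino acid and glucose use, was at 58, 64 and 66 counts against 58, 84 and 38 (log2 difference 0.047, 95% interval -0.51 to 0.60, adjusted p = 0.911). The intervals leave room for moderate changes either way, most of all for KLF15. All 3 genes overlapped between groups.

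To compare levels between genes, the deposited RPKM values, which divide counts by gene length and by library total, were used. In control the order of mean RPKM was KLF3 (4.76), KLF6 (3.27), KLF4 (2.40), KLF2 (2.27), KLF10 (2.21), KLF11 (1.24), KLF9 (0.937), KLF5 (0.933), KLF13 (0.702) and KLF15 (0.579). Neighbours overlapped between KLF3 and KLF6, KLF4 and KLF2, KLF2 and KLF10, KLF9 and KLF5, and KLF13 and KLF15. In 25(OH)D the order was KLF3 (3.67), KLF10 (1.93), KLF6 (1.65), KLF11 (1.57), KLF13 (1.26), KLF2 (1.13), KLF4 (1.05), KLF5 (0.853), KLF9 (0.600) and KLF15 (0.577). There only KLF3 and KLF10, KLF4 and KLF5, and KLF5 and KLF9 were neighbours that did not overlap. KLF3 led and KLF15 closed both orders, while KLF4 dropped from the third place to the seventh and KLF13 climbed from the ninth to the fifth.

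**Figure D4:**
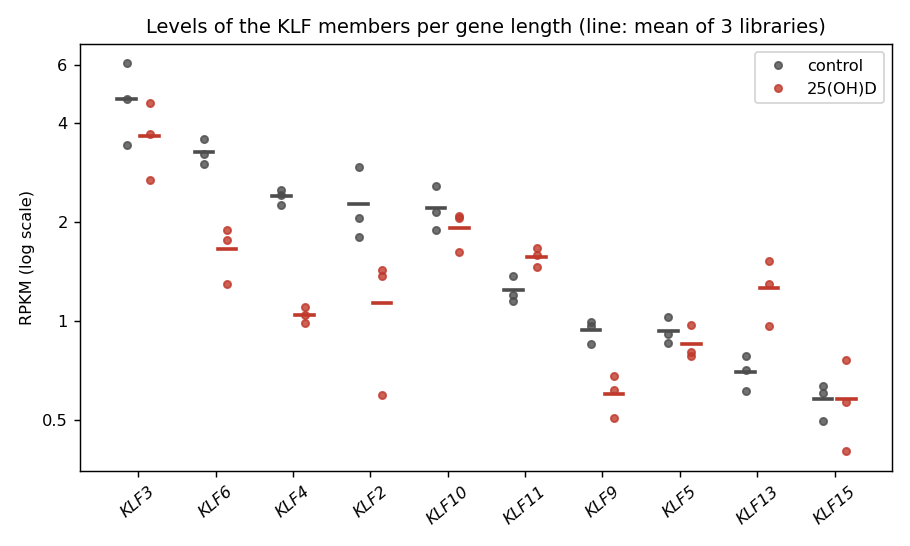
RPKM of each member in control and 25(OH)D libraries on a log axis, with a point per library and the mean, in the order of the control mean. KLF3 is highest in both groups, and KLF13 is the member that gains most places in 25(OH)D.

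Summed over the 10 members, the level was 22.1, 18.7 and 17.1 RPKM in control and 12.2, 15.2 and 15.4 RPKM in 25(OH)D. The groups did not overlap, with means of 19.3 ± 2.57 and 14.3 ± 1.81 RPKM (two-sided exact permutation p = 0.1, the smallest that 3 against 3 libraries can give). The makeup of that sum also differed, and the p of the exact permutation test was again 0.1 for each of the shares and ratios that follow, as was the Benjamini-Hochberg adjusted value over the 5 values. KLF6 made up 17.0% ± 0.695 of the sum in control and 11.5% ± 0.900 in 25(OH)D, and KLF13 3.64% ± 0.131 against 8.76% ± 1.01. The ratio of KLF4 to KLF5, the pair with opposing roles in epithelial growth, was 2.59 ± 0.338 in control and 1.24 ± 0.172 in 25(OH)D. For KLF13 over KLF9, both SIN3A partners, the ratio was 0.753 ± 0.121 against 2.09 ± 0.326, so that the order of these related factors turned over. Shares and ratios follow from the members' own differences and are not separate evidence.

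Some libraries were at the edge of their group for several members. Control replicate 1 was the highest of its group for 6 of the 10 genes, as it was for 34.5% of all genes tested. Control replicate 3 was the lowest for 6, against 35.3% of all genes, and 25(OH)D replicate 1 was the lowest for 6, against 33.4%. These counts are a description of 10 genes, and whether the members shared a library effect was not tested. The share of mitochondrial counts was 7.85% to 7.99% in control and 8.89% to 9.24% in 25(OH)D, highest in 25(OH)D replicate 1. The part of this shift in the members' values was not tested. KLF4, KLF6 and KLF13 stayed past the threshold without any single library and without replicate 1 of both groups, which was chosen after the values were seen. Their log2 differences ran from -1.18 to -1.10, from -1.04 to -0.79 and from 0.74 to 1.05 as each library was left out in turn.

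**Figure D5:**
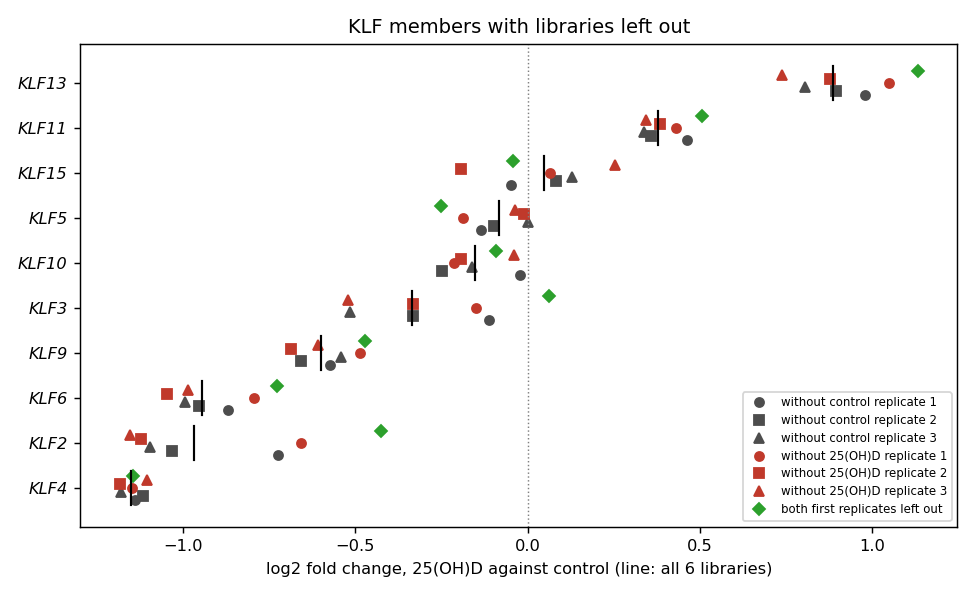
Log2 difference of each member with all 6 libraries (black line), with each library left out in turn (markers) and with replicate 1 of both groups left out (green diamond). KLF4 barely moves, whereas KLF2 runs from -1.15 to -0.42 and KLF3 crosses 0.

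Outside the 10, KLF17, a factor known from germ cells and the early embryo, had the largest rise of the KLF genes tested. It was counted at 79, 77 and 101 in control and 196, 191 and 195 in 25(OH)D, or 2.23 ± 0.454 against 5.51 ± 0.512 CPM, with a log2 difference of 1.31 (SE 0.172, adjusted p = 3.49e-05). The treated libraries were close to each other and far from control. KLF12, a CtBP-binding repressor, was at 30, 36 and 16 counts against 48, 44 and 36. Its groups did not overlap, yet its log2 difference of 0.77 had an adjusted p of 0.0874, which was 0.0491 without control replicate 2. KLF16 had a log2 difference of -0.072 (adjusted p = 0.720), and KLF8, at no more than 22 counts, one of 0.39 (adjusted p = 0.752), whose sign turned without control replicate 3 (-0.043) or 25(OH)D replicate 2 (-0.59). KLF7 and KLF18 were at no more than 6 counts in any library. KLF1 was at 12, 0 and 3 counts in control and 0, 4 and 4 in 25(OH)D. These 3 genes did not pass the filter on low counts and were not tested.

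The SP proteins share the zinc-finger design and the GC-box target of the KLFs. Of 5 SP genes tested, 3 fell (2 under DESeq2) and the other 2, SP2 and SP3, did not pass, with a median log2 difference of -0.22. Of all genes tested 16.5% were lower, and from so few SP genes nothing is read about the list. SP6, an epithelial factor of tooth and skin, was at 690, 585 and 608 counts in control and 213, 276 and 309 in 25(OH)D (-1.10, SE 0.130, adjusted p = 1.24e-05). SP1, the general GC-box activator, was lower by little but evenly (-0.22, SE 0.0426, adjusted p = 9.43e-04). SP4 had a log2 difference of -0.45 (adjusted p = 0.0337), and its call held without 25(OH)D replicate 1 but was lost without any other single library (adjusted p 0.0633 to 0.101) and under DESeq2 (adjusted p = 0.105).

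KLF factors act through corepressors and coactivators. Of 12 corepressor and coactivator genes 3 passed, all lower, beside the 16.5% of all genes tested that were lower, and the median log2 difference was -0.094. They were the acetyltransferase CREBBP (-0.24, adjusted p = 0.00133), the scaffold SIN3A (-0.21, adjusted p = 0.00200) and the deacetylase HDAC2 (-0.14, adjusted p = 0.0183). The HDAC2 call was lost without control replicate 2 or 3 or without 25(OH)D replicate 2 or 3 (adjusted p 0.0510 to 0.140). CTBP1 and CTBP2, the partners of KLF3, were among the 9 genes that did not pass.

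Of 8 genes for ubiquitin ligases and deubiquitinases that act on KLF proteins, 4 fell and 1 rose (median -0.15), where 16.5% of all genes tested were lower and 17.3% higher. FBXW7, the receptor of a ubiquitin ligase that marks KLF2 and KLF5, went from 100.0 ± 2.73 to 69.0 ± 0.623 CPM (-0.54, SE 0.0450, adjusted p = 4.01e-07). WWP1, a ligase for KLF2 and KLF5, was the gene that rose (0.23, adjusted p = 0.00127). BAP1, which stabilises KLF5, was at -0.24 (adjusted p = 0.00346). ATXN3 was at -0.20 (adjusted p = 0.00996, but 0.0512 without control replicate 1 and 0.0523 without 25(OH)D replicate 3). SMURF2 was at -0.20 (adjusted p = 0.0393), a call that held without control replicate 3 and was lost without any other single library (adjusted p 0.0527 to 0.165) and under DESeq2 (adjusted p = 0.0752). The protein levels of the KLFs were not measured.

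Routes that are known to induce KLF genes were examined by their RNA. In the ERK5 and MEF2 route, which drives KLF2 and KLF4 in endothelium, 1 of 7 genes passed, beside 33.8% of all genes tested. MEF2A was at -0.25 (adjusted p = 0.0306), a call that held without 25(OH)D replicate 1 and was lost without any other single library (adjusted p 0.0635 to 0.145) and under DESeq2 (adjusted p = 0.0718). Glucocorticoids induce KLF9 and KLF15, and of 6 tested genes of that receptor and its targets 2 rose and 2 fell, beside 17.3% and 16.5% of all genes tested. TSC22D3, a standard target, went from 98.9 ± 3.73 to 181 ± 13.0 CPM (0.87, SE 0.0533, adjusted p = 1.31e-08). The receptor gene NR3C1 fell by 0.24 on the log2 scale (adjusted p = 0.00529). FKBP5 was at 0.14 (adjusted p = 0.0182, but 0.0608 without control replicate 3 and 0.0508 without 25(OH)D replicate 2), and with upper-quartile factors or library sizes alone it was 0.0918 or 0.105. PER1 was at -0.56 (adjusted p = 0.0167), and its adjusted p was 0.0795 without control replicate 3, 0.0593 without 25(OH)D replicate 1 and 0.0624 without 25(OH)D replicate 3. The targets thus moved in both directions, and the median over the 6 was 0.035.

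Genes known as targets of KLF factors include some that they activate and some that they repress, so no common direction was implied. Of 11 tested, 4 rose and 2 fell (1 under DESeq2), with a median of 0.17, beside 17.3% higher and 16.5% lower among all genes tested. THBD, thrombomodulin, which KLF2 induces in endothelium, was at 418, 389 and 357 counts in control and 990, 1107 and 913 in 25(OH)D (1.50, SE 0.0714, adjusted p = 8.08e-10), the opposite direction to KLF2. CDKN1A, the cell-cycle inhibitor that KLF4 and KLF6 activate elsewhere, was at 237, 219 and 211 counts against 411, 589 and 466 (1.26, SE 0.113, adjusted p = 7.70e-07), again opposite to both. PRODH, proline dehydrogenase, a catabolic gene linked to KLF15, was higher (0.89, adjusted p = 8.80e-10) while KLF15 overlapped between groups. CCND1, cyclin D1, was higher (0.35, adjusted p = 9.64e-05). ODC1, the entry enzyme of polyamine synthesis, which KLF4 represses elsewhere, was lower (-0.48, adjusted p = 8.42e-05). LGALS3, galectin-3, was at -0.31 (adjusted p = 0.0267), and its adjusted p was 0.115 without control replicate 1, 0.0742 without control replicate 2, 0.118 without 25(OH)D replicate 1 and 0.0642 without 25(OH)D replicate 3, and 0.0541 under DESeq2. The other 5 tested targets did not pass. Whether the KLFs, or 25(OH)D apart from them, had a part in these differences was not tested.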

How the data were processed

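Read counts per gene were deposited by the authors together with RPKM made from them. Per the submitters' processing notes, reads were trimmed with Trimmomatic 0.36 and counted with featureCounts of Subread 1.5.1 on GRCh38, and edgeR 3.12.1 was used. The aligner and gene annotation are not given in the sources used here. Both tables held no other measurements. Even counts were in excess (66.6% of values from 1 to 19), so both mates of a pair appear to have been counted, and counting halved values was an alternative.

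Genes were filtered with filterByExpr (minimum count 10), scaled by TMM and tested with edgeR 4.0.16 in R 4.3.3 (quasi-likelihood, groups alone, 3 libraries each, Benjamini-Hochberg over 18183 genes). SE was taken from the log2 difference and its F value. Single sums and ratios had an exact permutation test. The family members, lists of partners and targets, and the genes named (all members and other KLF genes, and from each list those past the threshold, up to 4 in each direction) were chosen with earlier results of these data known. KLF2P1, KLF3-AS1 and the immediate early genes were named after their values were seen. The script was tested on simulated data. Alternatives were RLE, upper-quartile or no factors, no filter, a replicate block, DESeq2 1.42.0, limma 3.58.1 on voom and on log2(RPKM + 1 or 0.1), and each library left out. Halved counts and leaving out replicate 1 of both groups were added after seeing the data. The groups were labelled as run in triplicate, and p-values measure the spread between these samples. No pair of libraries agreed within sampling noise (chi-square per gene 3.97 to 12.1).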

Additional observations from a re-analysis of the deposited data

How the results depend on the processing

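Of the 10 members, KLF4, KLF6 and KLF13 kept their direction and their side of the threshold under all 17 alternatives. The number of members higher was 1 instead of 2 under DESeq2 and limma on log2(RPKM + 1) or log2(RPKM + 0.1), and 1 to 2 as single libraries were left out, because KLF11 no longer passed. The number lower was 3 instead of 4 on log2(RPKM + 1) or log2(RPKM + 0.1) and 5 with no filter. It was 3 to 5 as single libraries were left out and 2 without replicate 1 of both groups. The number past a log2 difference of 1, with an unadjusted p under 0.05, was 1 in the main fit. It was 2 with upper-quartile factors, library sizes alone, limma voom, log2(RPKM + 0.1) or without replicate 1 of both groups. On log2(RPKM + 1) it was 0, and without single libraries it was 1 to 3. The sign turned for KLF3 without replicate 1 of both groups (0.062), for KLF5 without control replicate 3 (0.0014), and for KLF16 without control replicate 1 (0.034; range without single libraries -0.13 to 0.034) or replicate 1 of both groups (0.013). KLF15 turned to -0.0074 on log2(RPKM + 1), -0.034 on log2(RPKM + 0.1), -0.048 without control replicate 1, -0.19 without 25(OH)D replicate 2 (range without single libraries -0.19 to 0.25) and -0.042 without replicate 1 of both groups. KLF2 no longer passed on log2(RPKM + 1) (adjusted p = 0.0512) or log2(RPKM + 0.1) (adjusted p = 0.0611), and KLF3 passed with no filter on low counts (adjusted p = 2.35e-04). KLF3-AS1 turned to 0.11 with the replicate block, 0.22 with limma voom, 0.037 on log2(RPKM + 1), 0.20 on log2(RPKM + 0.1), 1.26 without replicate 1 of both groups and ran from -0.67 to 0.87 without single libraries. KLF8 turned to -0.35 with limma voom and ran from -0.59 to 0.95 without single libraries. Of 35 named genes that are no member, 32 kept their direction under every alternative and 19 also their side of the threshold. With no filter SP4 (0.0546), SMURF2 (0.0532) and ATF3 (0.0739) lost their calls, and in the RPKM fits SMURF2, ATXN3, MEF2A, FKBP5 and IER2 did (adjusted p 0.0543 to 0.144), as did TP63 on log2(RPKM + 1) (0.1005). Apart from fewer libraries, the cause was not tested. Over all genes 2391 to 3298 were higher and 2263 to 3667 lower.

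Deviations of same-numbered libraries correlated at -0.072 to -0.012 and those of other pairs at -0.016 to 0.063, so no pairing by replicate number was seen. The labels do not say whether same-numbered libraries were run together. These correlations cannot settle it, as deviations within a group depend on each other. With the replicate block, 2 members were higher and 4 lower, and over all genes 3057 were higher and 2896 lower, and of the 35 named genes that are no member SP4 (adjusted p = 0.0533) and ATF3 (adjusted p = 0.0573) lost their calls. Among the KLF genes tested, depth limits KLF8, KLF12 and KLF15 most, at no more than 84 counts per library.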

Other observations

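Immediate early genes, which respond within minutes to growth factors and to handling, were looked at after the values of the KLF genes had been seen. Of 7 such genes, FOS (1.91), JUN (0.73) and JUNB (0.79) were higher on the log2 scale in 25(OH)D, EGR1 (-1.75), ATF3 (-0.36) and IER2 (-0.43) were lower, and FOSB did not pass. Of all genes tested 17.3% were higher and 16.5% lower. The adjusted p was 0.0391 for ATF3 and 0.0179 for IER2 with edgeR, but 0.121 and 0.130 under DESeq2. The ATF3 call held without control replicate 1 and was lost without any other single library (adjusted p 0.0588 to 0.142), and that of IER2 was lost without control replicate 1 (0.0922) or 25(OH)D replicate 3 (0.0598). Their summed level was 140, 127 and 123 CPM in control and 170, 172 and 165 CPM in 25(OH)D. The groups did not overlap, and 25(OH)D replicate 1, the lowest library for 6 KLF genes, lay between the other treated libraries. JUN and JUNB weighed heavily in that sum. JUN was at 31.8 ± 1.67 CPM in control and 52.9 ± 1.04 CPM in 25(OH)D, and JUNB at 45.2 ± 1.13 and 78.0 ± 0.984 CPM. As 3 of the 7 genes were lower, the higher sum does not stand for the genes as a set. The part of the immediate early genes in the KLF results was not tested.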
